A study of Drosophila melanogaster with 8 samples.

Results

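The heads of flies collected in the morning, at ZT3, were compared with heads collected in the evening, at ZT15. ZT is zeitgeber time, the number of hours after lights-on in a light–dark cycle, so ZT3 lies in the light and ZT15 in the dark. The comparison used 6 of the 8 libraries of the dataset, namely the 3 libraries at ZT3 and the 3 at ZT15, each set having 1 library from flies kept at 18°C, 1 at 25°C and 1 at 29°C. These columns were chosen by their labels alone. The other 2 libraries, from 18°C and 29°C at the late-night time point labelled zt23, entered only as an alternative.

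All 6 libraries came from whole heads of Canton-S, a wild-type laboratory strain, with no mutation, transgene or drug, and they differed in temperature and time of day. The labels say that the flies were grown at different temperatures, and they give neither the age, the sex nor the number of the pooled flies. PolyA+ RNA was sequenced, and each annotated transcript has a value for its average coverage per base pair. Each library was scaled here to a sum of 1000000 over the listed transcripts, and the resulting value is called scaled coverage. Since it is an average per base, levels of different genes can be set side by side. Each combination of temperature and time has 1 library, so the 3 libraries of a time point are replicates across temperatures, and their spread holds the effect of temperature and of the library together. ZT15 was set against ZT3 within each temperature, which gives 3 pairs.

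The fly circadian clock is a transcriptional feedback loop. The factors CLK and CYC activate per and tim, whose proteins accumulate at night, enter the nucleus and block CLK–CYC until they are degraded, TIM in a light-dependent way through the photoreceptor CRY. A second loop runs through vri and Pdp1, which act on Clk with opposite signs. In heads, per and tim mRNAs are known to be high in the early night and low in the morning, while Clk and cry mRNAs are known to have the opposite phase. Heads hold the brain, the compound eyes, cuticle and a layer of fat body, and genes of all these tissues can follow the time of day.

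Markers of the head were present in all 6 libraries. The 7 neuronal markers summed to between 472 and 734 in scaled coverage in every library, and the 4 photoreceptor markers to between 7826 and 16533. Other tissues of the head varied more with temperature. The 4 fat body markers summed to 19339, 48444 and 16975 at ZT3 (18°C, 25°C, 29°C) and to 20315, 44214 and 10124 at ZT15, most of it from the 3 yolk protein genes, which are female markers and went from 16806 to 9915 at 29°C. The 4 muscle markers ran from 1223 to 3496, highest at 18°C. The part of these shifts in the results was not tested. The evening library at 29°C stood apart. Its 4 midgut markers (digestive enzymes) summed to 697, against 2.83 to 4.63 in the other 5 libraries, and its 7 male accessory gland markers to 188, against 0.19 to 1.16. In the same library, 10 testis markers summed to 53.0, against 1.02 to 1.25 elsewhere, and 8 ovary markers to 41.2, against 0.56 to 5.18. Only 590 transcripts were listed at 0 there, against 1435 to 1612 in each of the other libraries of the dataset. Markers of body tissues were thus present at ZT15 at 29°C and nearly absent from the rest, so values are given per library for the genes described in most detail, and the other single log2 values are means over the 3 pairs. Without the 29°C pair, 106 of the 111 genes named by rule kept the direction of that mean, and 5 did not (Rpn10, Rpn6, Rpt3, Rpt6R and trpl). A gene with 1 direction at all 3 temperatures must keep it here. The top genes named for their small p had to have 1 direction, so this count was partly fixed in advance. Levels in bulk RNA cannot tell fewer cells of a type from less RNA per cell.

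**Figure D1:**
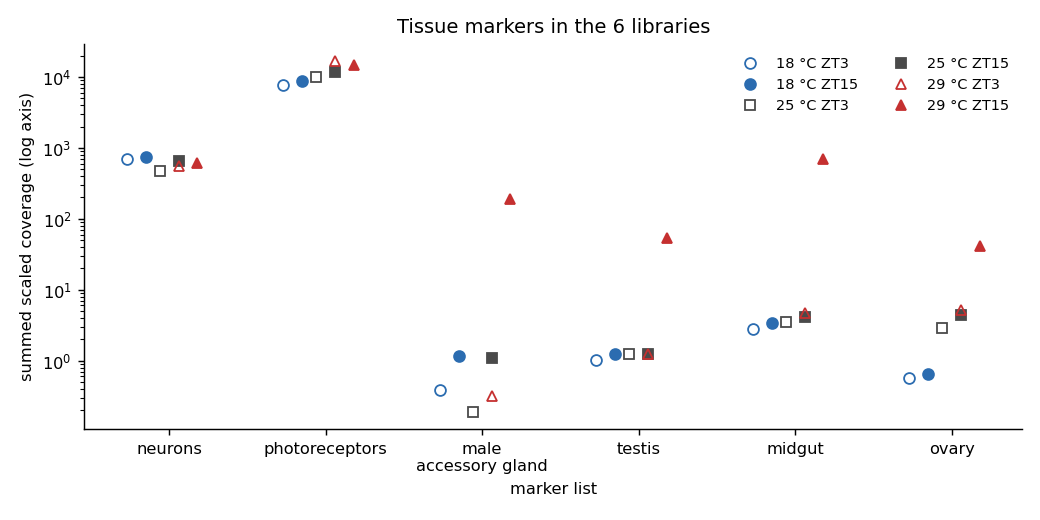
Summed scaled coverage (log axis) of 6 marker lists in the 6 libraries. Open symbols are ZT3 and filled symbols ZT15, with 1 symbol per library. The neuronal and photoreceptor sums are within the same order of magnitude in every library, whereas the filled triangle of 29°C at ZT15 lies far above the rest for accessory gland, testis, midgut and ovary.

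No transcript passed the test across the 3 pairs. Of 14854 transcripts tested with limma, with temperature as a block, 0 (0%) had a Benjamini-Hochberg adjusted p under 0.05, and the lowest adjusted p was 0.246. Without adjustment 2954 transcripts had p under 0.05, of which 2626 were higher and 328 lower at ZT15. Taking 1 transcript per gene, the one with the highest mean, 1285 of 8368 genes (15.4%) were higher and 217 (2.59%) lower at an unadjusted p under 0.05. This excess of higher genes moves with the scaling. Over all genes tested the median difference was 0.12 on the log2 scale, and higher genes made up 85.6% of the unadjusted calls. Scaling to the 75th percentile brought the median to 0.023 and that share to 44.7%, and quantile normalization brought them to -0.033 and 24.5%. Differences below should therefore be read against a median of 0.12, and "higher" and "lower" describe the values, not calls of the test.

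A description that does not rest on the test was added, the genes that differed by at least 1.5-fold in 1 direction at all 3 temperatures, on the scale of log2(scaled coverage + 1). There were 13 such genes higher at ZT15 (0.155% of the 8368) and 18 lower (0.215%). Both other scalings kept all 18 lower genes and 7 of the 13 higher ones, namely tim, per, Cyp4d21, gol, Cipc, Acp63F and Obp19a. With a pseudocount of 5 in place of 1, which weighs low genes less, 5 higher and 4 lower genes were left.

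Of the core clock genes, tim and per were among the 13. The gene tim (timeless, CG3234, chromosome arm 2L) had the largest difference among the 13 higher genes. Its scaled coverage at ZT3 was 25.9 (18°C), 13.2 (25°C) and 21.3 (29°C), and at ZT15 it was 84.1, 143 and 152 in the same order, which is kept for all such series of values below. The lowest evening library was more than 3 times the highest morning one, and the mean difference was 2.59 ± 0.33 (SE, log2, n = 3 pairs), a fold of 6.03. The difference was smallest at 18°C, where it was 1.66 on the log2 scale, and larger at 25°C (3.34) and at 29°C (2.78). Each of these is a difference between single libraries, and whether they differ by temperature was not tested.

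The gene per (period, CG2647, arm X), which encodes the partner of TIM, was likewise higher in every evening library than in every morning one, at lower levels. At ZT3 its scaled coverage was 11.3, 5.50 and 5.84. At ZT15 it reached 19.6, 22.7 and 18.1, with a mean log2 difference of 1.36 ± 0.23 (SE, n = 3 pairs). The morning level of per was highest at 18°C, as was that of tim. The annotation places the gene dyw so that it overlaps per, and whether coverage was assigned by strand is not given in the sources used here. The value of dyw is described further down.

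The loop genes vri and Pdp1 encode bZIP factors, a repressor and an activator of Clk. Scaled coverage of vri was 33.0, 9.39 and 11.6 at ZT3 and 48.1, 87.2 and 82.3 at ZT15. It was higher in the evening at every temperature, by 0.53 on the log2 scale at 18°C and by 2.73 at 29°C. For Pdp1 the values were 116, 99.8 and 86.3 at ZT3 and 119, 177 and 162 at ZT15, so that at 18°C morning and evening were nearly equal. The gene cwo, a repressor of CLK–CYC targets, was at 18.1, 13.1 and 13.5 at ZT3 and at 24.3, 27.3 and 23.7 at ZT15. In all, 5 of the 5 evening-phase clock genes were higher at ZT15 at an unadjusted p under 0.05 (against 15.4% of all genes), with a median difference of 1.36, and all of them had evening values above all their morning values, as did 648 (7.74%) of all genes, while 92 (1.1%) had them below. With 3 pairs, the smallest two-sided p of an exact permutation test on 1 gene would be 0.25.

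The 2 genes of the opposite phase were lower in the evening. Scaled coverage of cry was 73.3, 92.8 and 94.4 at ZT3, against 52.4, 41.0 and 40.0 at ZT15. The groups did not overlap, and the mean log2 difference was -0.95 ± 0.17 (SE, n = 3 pairs). For Clk the values were 9.42, 7.31 and 12.5 at ZT3 and 7.36, 4.57 and 5.72 at ZT15. They were lower in the evening within each temperature, although the evening value at 18°C lay just above the morning value at 25°C. The partner gene cyc, whose mRNA is not known to cycle, was between 13.9 and 15.4 at ZT3 and between 15.4 and 18.4 at ZT15, with a mean log2 difference of 0.17 that turned to -0.0040 under quantile normalization. For each of these clock genes other than cyc, the difference between morning and evening was smallest at 18°C.

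**Figure D2:**
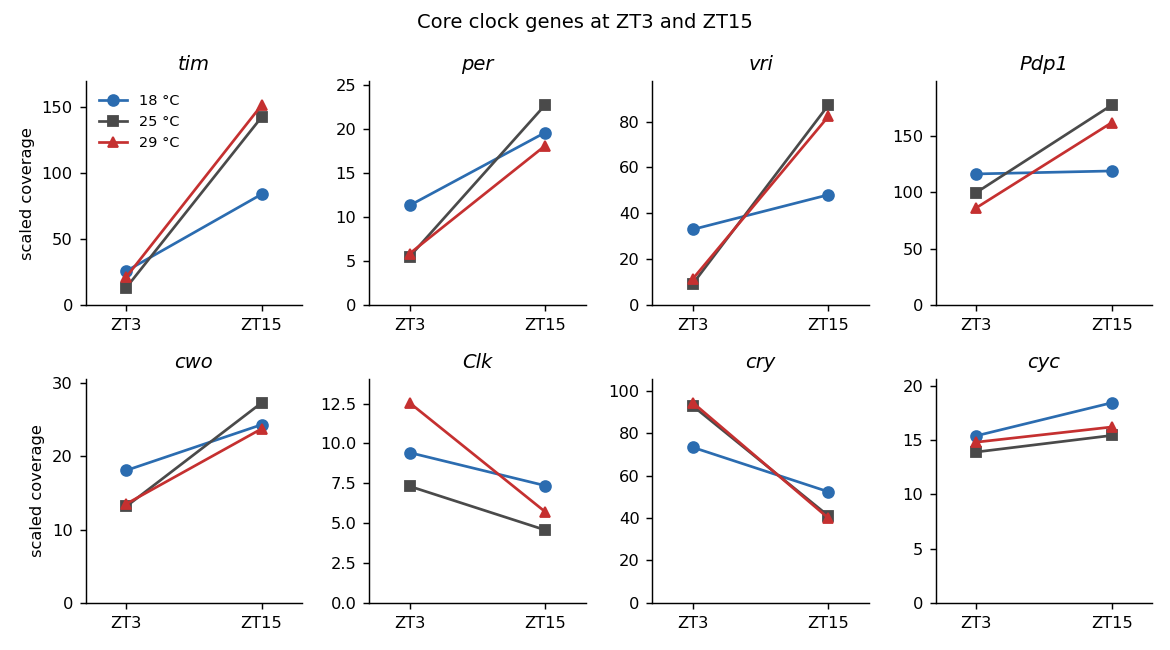
Scaled coverage of the 8 core clock genes at ZT3 and ZT15, with 1 point per library and a line joining the 2 libraries of a temperature. The lines of tim, per, vri, Pdp1 and cwo run upwards, those of Clk and cry downwards at all 3 temperatures, and the 18°C line (blue) is the flattest for each of these 7 genes.

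Among genes that set the pace of the clock proteins (kinases, phosphatases, ubiquitin ligases and partners), differences were small. Of 19 genes, 7 were higher and 0 lower at an unadjusted p under 0.05, and 13 were higher at all 3 temperatures, against 15.4%, 2.59% and 42.3% of all genes. The median difference was 0.22, that is 0.099 above the median of all genes. The kinase gene dco (doubletime), whose product phosphorylates PER, was at 24.9, 20.7 and 23.4 at ZT3 and at 29.5, 25.7 and 32.1 at ZT15. Comparable differences were seen for the ubiquitin ligase genes ctrip (0.46 on the log2 scale) and Cul3 (0.31), and for gw (0.40), which acts in silencing by small RNAs. Under the 75th percentile and under quantile scaling 2 of the 19 were left as higher at an unadjusted p under 0.05. Of all genes, 376 of 8367 and 186 of 8371 were higher under these scalings.

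Of 12 output genes tested, 3 were higher (Cyp4d21, Slob and Nf1) and 2 lower (Pdh and Cyp6a21) at an unadjusted p under 0.05. Of all genes, 15.4% were higher and 2.59% lower at that level. Cyp4d21, a cytochrome P450 also known as sxe1 that is enriched in male heads, had the smallest p of all transcripts (unadjusted p = 4.05e-05 and adjusted p = 0.246, limma). It went from 16.3 to 36.5 at 18°C, from 29.5 to 76.5 at 25°C and from 20.8 to 50.0 at 29°C. The 3 differences lay close together, with a mean of 1.23 ± 0.086 (SE, log2, n = 3 pairs), and sxe2, the other male-head marker, was at 55.1, 137 and 123 at ZT3 and at 54.2, 129 and 118 at ZT15. The 2 male-head markers therefore did not move together between morning and evening.

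Slob encodes a protein that binds the Slowpoke potassium channel. Its scaled coverage was 82.0, 51.4 and 61.0 at ZT3 and 96.5, 116 and 139 at ZT15, again with the smallest difference at 18°C. Pdh, a retinol dehydrogenase of the eye, was among the more abundant genes of the list and was lower in the evening, at 1374, 1573 and 1163 at ZT3 against 1013, 868 and 560.5 at ZT15. Its groups did not overlap, with a mean log2 difference of -0.78 ± 0.14 (SE, n = 3 pairs). The sodium leak channel gene na (0.18), the glutathione synthesis gene Gclc (0.19), the neurofibromin gene Nf1 (0.49) and Cyp6a21 (-0.41) had smaller mean log2 differences. For Lnk (0.12), Hdc (0.081), Pdfr (0.019), sxe2 (-0.057) and to (-0.11), the mean difference was less than 2 times its standard error, and the sign of Lnk, Hdc and Pdfr turned under quantile normalization.

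Beyond the clock, genes that were at least 1.5-fold higher in the evening at every temperature had varied functions. Cipc, the fly relative of a mammalian gene whose product inhibits CLOCK, was at 19.9, 18.1 and 15.4 at ZT3 and at 36.3, 39.4 and 29.6 at ZT15. The gene gol (goliath), a RING-type ubiquitin ligase, was at 51.8, 35.4 and 42.5 at ZT3 and at 88.3, 78.0 and 83.8 at ZT15. Their mean folds were 1.91 and 1.93, with standard errors of 0.090 and 0.10 on the log2 scale, and neither gene's groups overlapped. The same was seen at lower levels for rgr (a mean log2 difference of 0.93), r-l (0.90), which encodes an enzyme of pyrimidine synthesis, ana (0.82), CG5535 (0.81), cyr (1.17) and CG10175 (0.74), and these 6 were under 1.5-fold at some temperature under 1 or both of the other scalings. Also named for their small p were dnr1 (0.56), a ubiquitin ligase gene of immune signalling, and CG11241 (0.59), both higher at all 3 temperatures by less than that fold at some of them.

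The genes Acp63F and Obp19a were also among the 13, with very uneven values. Acp63F, a male accessory gland gene, was at 0, 0 and 0.085 at ZT3 and at 0.716, 0.636 and 17.1 at ZT15. The odorant-binding protein gene Obp19a was at 0.347, 0.452 and 1.57 at ZT3 and at 1.41, 1.39 and 7.09 at ZT15. Both have their highest value in the evening library at 29°C that also holds the accessory gland markers, and the part of those markers in the 2 results was not tested. At 18°C and 25°C their levels were under 1.5 in scaled coverage.

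In the other direction, the genes lower in the evening with the smallest p included several for metabolic enzymes. They were picked by their p, and the metabolic lists described further down had no common direction. Miox, an inositol oxygenase, was at 365, 450.3 and 297 at ZT3 and at 228, 278 and 186 at ZT15. Its 3 differences were almost equal, with a mean of -0.68 ± 0.075 (SE, log2, n = 3 pairs). Prat2, which catalyses the first committed step of purine synthesis, went from 86.3 to 54.1 at 18°C, from 97.4 to 63.4 at 25°C and from 81.9 to 51.4 at 29°C. CG15093 was lower by a similar amount (-0.74 ± 0.086). Also lower were CG16758 (-0.63), which encodes a predicted purine nucleoside phosphorylase, CG17778 (-0.65), CG3902 (-0.59), CG5793 (-0.72), CG32407 (-0.92) and the flavin-containing monooxygenase gene Fmo-2 (-0.79). Each of these 6 genes was lower at all 3 temperatures, and the differences of CG5793, CG32407 and Fmo-2 were uneven, least at 18°C (-0.52, -0.54 and -0.50).

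**Figure D3:**
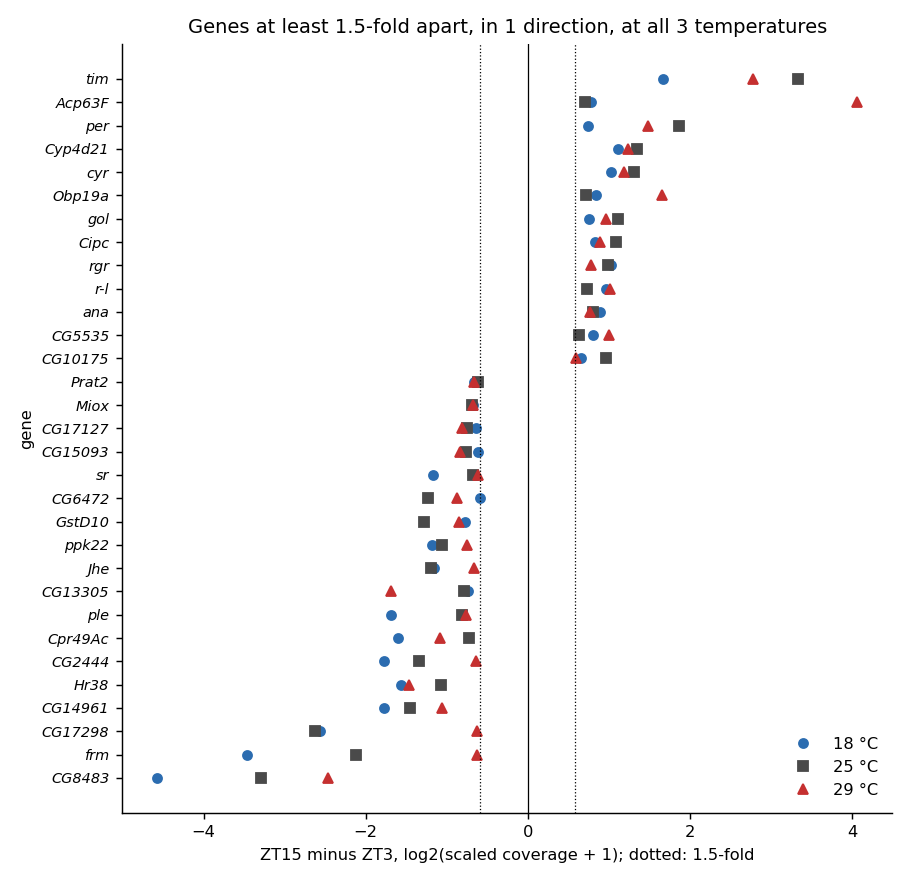
Difference between ZT15 and ZT3 on the scale of log2(scaled coverage + 1) for the 31 genes at least 1.5-fold apart in 1 direction at all 3 temperatures, with 1 symbol per temperature. The 3 symbols of Miox, Prat2, Cyp4d21 and ana lie close together, while those of tim, CG8483, frm and CG17298 are spread over more than 1.5 log2 units.

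Several of the 18 lower genes were far higher in the morning library at 18°C than in any other. CG8483 was at 156, 33.1 and 41.4 at ZT3 and at 5.60, 2.49 and 6.67 at ZT15, a difference of -3.44 ± 0.40 (SE, log2, n = 3 pairs), which is 10.9-fold higher in the morning. CG17298 was at 130.4, 32.7 and 12.6 at ZT3 and at 21.2, 4.45 and 7.80 at ZT15, and frm at 22.5, 5.66 and 6.42 against 1.14, 0.532 and 3.79. The differences of CG17298 and frm were smaller at 29°C, at -0.62 and -0.63, than at 18°C, at -2.57 and -3.46. The cuticle protein gene Cpr49Ac (3.95, 0.761 and 1.33 at ZT3 against 0.623, 0.065 and 0.095 at ZT15) and CG2444 (41.3, 14.3 and 11.6 against 11.4, 5.05 and 7.07) had the same order. Other genes of the 18, with their mean log2 differences, were CG14961 (-1.43), CG13305 (-1.07), CG6472 (-0.90) and CG17127 (-0.73).

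Tyrosine hydroxylase, encoded by ple, makes the precursor of dopamine in neurons and of the compounds that harden and colour cuticle. Its scaled coverage was 193, 62.4 and 24.0 at ZT3 and 59.3, 35.0 and 13.7 at ZT15, lower in the evening at each temperature and lower in warmer flies at each time. The 2 genes that act on the conjugation of dopamine with beta-alanine were also lower in the evening, e (ebony) at 128, 76.5 and 57.4 against 71.6, 55.6 and 52.4, and t (tan) at 163, 163 and 172 against 148, 131 and 145. Among 21 genes of neurotransmitter synthesis and transport these were the 3 lower ones at an unadjusted p under 0.05, against 1 higher (Eaat1, a glial glutamate transporter). Of all genes, 2.59% were lower and 15.4% higher at that level. Under each of the other scalings 0 of the 21 were higher, against 376 of 8367 (75th percentile) and 186 of 8371 genes (quantile). The choline acetyltransferase gene ChAT, named for its role, was between 53.9 and 69.6 in every library, with a difference of 0.0080 whose sign turned under both other scalings.

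Cuticle protein genes were mixed. Of 38 tested, 2 were higher and 3 lower at an unadjusted p under 0.05, 7 were higher and 5 lower at all 3 temperatures, against 15.4%, 2.59%, 42.3% and 7.15% of all genes, and the median was 0.18. Quantile normalization gave 0 higher and 7 lower and a median of -0.040, against 186 and 574 of 8371 genes and a median of -0.033. Leaving out the 29°C pair gave 2 higher and 7 lower and a median of -0.022. All genes then had 860 higher and 252 lower of 8159 and a median of 0.095. Cpr67B (179, 109 and 121 at ZT3, 130.2, 69.6 and 93.5 at ZT15) and Cpr50Cb (34.8, 8.19 and 5.18 against 19.9, 4.54 and 4.92) were lower, and Ccp84Ad (a mean log2 difference of 0.45) was higher. Per temperature the median of the list was -0.13 (18°C), -0.0096 (25°C) and 0.38 (29°C).

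Leaving out the 29°C pair, whose evening library holds the body markers, brought transcripts past the threshold. In the 2 pairs at 18°C and 25°C, 2 transcripts were higher (of Cyp4d21 and cyr) and 16 lower at an adjusted p under 0.05 (limma). The lower ones were 4 transcripts of frm and 1 each of CG17298, dyw, Cht5, CG8483, CG14961, CG2444, CG5697, CG12003, Jhe, ppk22, CecB and Hr38. With 2 pairs the test rests largely on the spread that limma borrows from other transcripts. The smallest adjusted p was 0.0017, for CG17298. The gene dyw (daywake), of the same protein family as takeout, went from 92.1 to 18.6 at 18°C and from 32.6 to 6.31 at 25°C, but from 23.4 to 39.4 at 29°C. The chitinase gene Cht5 went from 73.9 to 15.5, from 27.0 to 5.77 and from 17.8 to 14.3. For dyw the direction at 29°C was thus the opposite of that at the other temperatures, and for Cht5 the difference there was small. Jhe, which degrades juvenile hormone (4.07 to 1.28, 2.83 to 0.672 and 1.27 to 0.427), and the sodium channel gene ppk22 (11.02 to 4.30, 2.96 to 0.90 and 2.91 to 1.32) were lower in all 3 pairs. Leaving out the 18°C or the 25°C pair instead gave 0 transcripts in either direction.

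Genes induced by neuronal activity were split. Hr38, the fly NR4A nuclear receptor, was at 7.41, 3.97 and 5.23 at ZT3 and at 1.84, 1.37 and 1.25 at ZT15, and sr (stripe), the fly Egr factor, at 10.1, 6.59 and 6.47 against 3.92, 3.74 and 3.90. In both genes every evening library lay below every morning library, with mean log2 differences of -1.37 ± 0.12 and -0.82 ± 0.14 (SE, n = 3 pairs). The other 5 genes of the list of 7 were slightly higher at all 3 temperatures, among them cbt (0.18) and kay (0.15), the fly Fos. Of all genes, 42.3% were higher and 7.15% lower at all 3 temperatures. The list's median, 0.11, was that of all genes to within 0.012.

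Of 27 ion channel and excitability genes, 7 were higher and 0 lower at an unadjusted p under 0.05, and 15 were higher at all 3 temperatures. Of all genes, 15.4% were higher by the first measure and 42.3% by the second, so that the second count is not far from the background. The calcium-activated potassium channel gene slo was at 43.0, 20.3 and 38.1 at ZT3 and at 48.6, 39.2 and 46.7 at ZT15. The potassium channel genes Shaw (19.0, 11.9 and 17.3 against 22.7, 19.9 and 19.3), Shal (0.30 on the log2 scale) and Irk3 (0.30) were also among the 7. The median of the list was 0.14 (18°C), 0.38 (25°C) and 0.14 (29°C), so that it was set largely by the 25°C pair. Under each of the other scalings 0 of the 27 had an unadjusted p under 0.05. Of all genes, 376 of 8367 (75th percentile) and 186 of 8371 (quantile) were higher at that level.

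Other measurements moved with this list. The neuronal markers summed to 692, 472 and 562 at ZT3 and to 734, 648 and 603 at ZT15, lowest in the morning library at 25°C, where the active-zone gene brp was at 15.2 against 33.3 to 39.9 in the other 5 libraries. Transcript length, taken for each gene as that of its longest transcript in the BDGP6 annotation, moved in the same pair. That transcript need not be the one whose coverage was compared. Among 8363 genes with a length in the BDGP6 annotation, the 2091 genes with the longest transcripts (3641 bases and more) had a median difference of 0.31 at 25°C, against -0.058 for the 2091 with the shortest (up to 1351 bases). At 18°C these medians were 0.15 and 0.0095, and at 29°C 0.16 and 0.11. Across genes, which are not independent replicates, Spearman's rho of length with the difference was 0.25 (18°C), 0.51 (25°C) and 0.071 (29°C). The part of transcript length or of neuronal RNA in these results was not tested.

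Genes of phototransduction, the cascade from rhodopsin to the TRP channels in the eye, had no common direction. Of 31, 5 were higher and 2 lower at an unadjusted p under 0.05, against 15.4% and 2.59% of all genes. The median was 0.055. The main light-activated channel gene trp was at 417, 390.5 and 601 at ZT3 and at 523, 575 and 729 at ZT15, higher at each temperature. The opsin gene Rh5 (91.2, 98.4 and 122 against 113, 134 and 142) and the rhodopsin phosphatase gene rdgC (41.4, 25.9 and 28.2 against 46.9, 43.3 and 37.4) had the same order. The most abundant gene of the list, ninaE, which encodes the rhodopsin of the outer photoreceptors, was at 6883, 9092 and 15409 at ZT3 and at 7694, 10587 and 13263 at ZT15. It was higher at 18°C and 25°C and lower at 29°C, with a mean difference of 0.055 that turned to -0.056 under scaling to the 75th percentile.

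The second channel gene, trpl, had opposite differences. Its scaled coverage was 193 at ZT3 and 294 at ZT15 at 18°C, 377 and 285 at 25°C, and 619 and 270.5 at 29°C. The evening levels of the 3 temperatures were alike, from 270.5 to 294, while the morning levels ran from 193 to 619. The eye kinase gene inaC was likewise higher in the evening at 18°C and lower at 25°C and 29°C. It was at 173, 220 and 259 at ZT3 and at 200.05, 132 and 138 at ZT15, so its evening levels were not alike. In each case the value is 1 library per temperature and time.

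**Figure D4:**
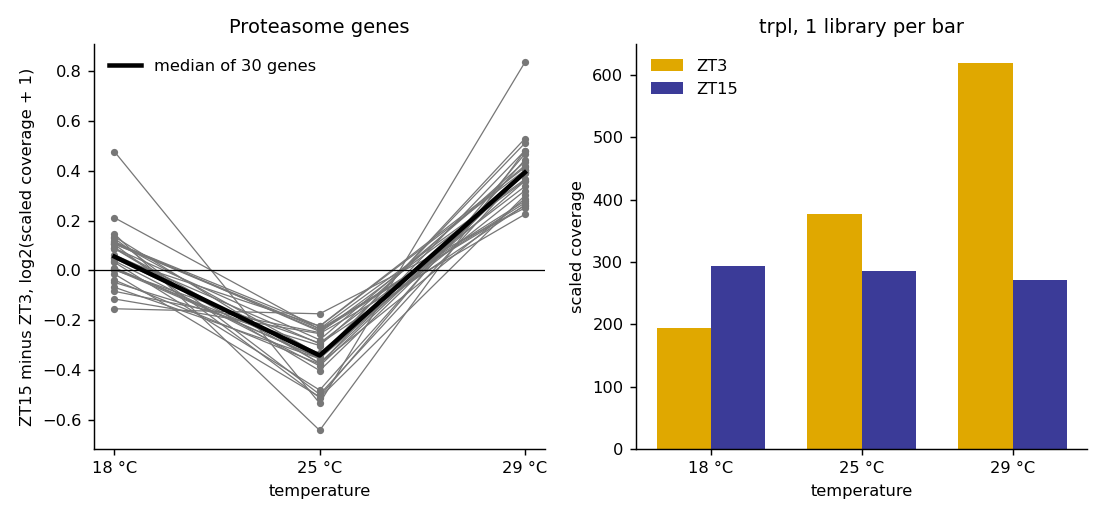
Left, difference between ZT15 and ZT3 on the scale of log2(scaled coverage + 1) for 30 proteasome genes at each temperature, with 1 thin line per gene and their median as a thick line. All 30 are below 0 at 25°C and above 0 at 29°C. Right, scaled coverage of trpl, with 1 library per bar, which spans 193 to 619 at ZT3 and 270.5 to 294 at ZT15.

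Genes of the proteasome, the complex that degrades ubiquitin-tagged proteins, had opposite differences at 25°C and 29°C. Of 30 genes tested, all 30 were lower at ZT15 at 25°C, with a median of -0.34, and all 30 were higher at ZT15 at 29°C, with a median of 0.39. At 18°C, 23 were higher and 7 lower, with a median of 0.056. The ATPase subunit gene Rpt3 may stand for the rest, at 142, 61.0 and 50.1 at ZT3 and at 153, 52.1 and 66.5 at ZT15, and its mean difference of 0.096 has no constant sign across scalings, like those of Rpn6 (0.079) and Rpn10 (0.079). The signs at 25°C and 29°C held for all 30 genes under both other scalings, whereas at 18°C 14 were higher and 16 lower under the 75th percentile. The medians of all genes were 0.11 (18°C), 0.0735 (25°C) and 0.14 (29°C). In the 25°C pair the genes with the shortest transcripts had a median of -0.058, and the evening library at 29°C carries the body markers. The part of either in the proteasome values was not tested. Genes of 1 complex are not independent of each other, and each temperature is 1 pair of libraries.

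Cytosolic ribosomal protein genes were slightly lower in the evening. Of 83 tested, 57 were lower and 1 higher at all 3 temperatures, against 598 lower (7.15%) and 3539 higher (42.3%) of all 8368 genes. The median difference was -0.13. At an unadjusted p under 0.05, 4 genes were lower, namely RpL29, RpL35, RpS21 and RpL36, against 217 (2.59%) of all genes. RpL36 was at 1603, 2376 and 3306 at ZT3 and at 1347, 2027 and 3011 at ZT15, a mean log2 difference of -0.20. This difference from other genes depends on the scaling, since quantile normalization gave a median of -0.029, which is 0.0041 above that of all genes, with 0 of the 83 at an unadjusted p under 0.05. Under the 75th percentile 37 of the 83 were lower at that level, against 466 of 8367 genes. Under limma's trend option 28 were lower, against 263 of 8368 genes. Oxidative phosphorylation genes had a smaller difference, with 20 of 64 lower and 1 higher at all 3 temperatures and a median of -0.060. ND-15, a subunit of complex I, was the 1 gene of the 64 with an unadjusted p under 0.05, against 2.59% of all genes that were lower. It was at 254, 264 and 207 at ZT3 against 215, 206 and 187 at ZT15. Under the 75th percentile 7 of the 64 were lower at that level, against 466 of 8367 genes. Under quantile normalization 4 were lower, against 574 of 8371 genes. The complex I genes ND-B14, ND-B15 and ND-B12 had mean log2 differences of -0.18, -0.18 and -0.17.

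Among 57 cytochrome P450 genes, 4 were higher and 8 lower at an unadjusted p under 0.05, against 15.4% and 2.59% of all genes, with a median of 0.027. The counts were 3 and 11 under the 75th percentile and 2 and 10 under quantile normalization, so that this list had more lower than higher genes under each scaling. Under the 75th percentile all genes also had more lower than higher, with 376 higher and 466 lower of 8367. Under quantile normalization they had 186 higher and 574 lower of 8371. The list did not have more lower than higher genes without the 25°C pair (5 higher and 4 lower) or without the block (2 and 1). At all 3 temperatures 11 of the 57 were higher and 9 lower, against 42.3% and 7.15% of all genes. Cyp18a1, which inactivates ecdysone, was at 10.5, 17.1 and 16.0 at ZT3 and at 19.7, 28.4 and 23.1 at ZT15, whereas Cyp4p1 (-0.49) and Cyp4aa1 (-0.39) were lower. Among 18 glutathione S-transferase genes, 1 was higher and 3 lower, and under the other scalings 0 were higher and 3 or 4 lower. GstZ2, an enzyme of tyrosine breakdown, was at 24.6, 32.1 and 38.6 at ZT3 and at 18.0, 15.3 and 13.0 at ZT15, and GstD10 at 3.86, 4.26 and 4.52 against 1.84, 1.17 and 2.06. For these 3 genes, Cyp18a1, GstZ2 and GstD10, the morning and evening libraries did not overlap. GstD1 (-0.25) was lower and GstT2 (0.26) higher. Of 17 UDP-glycosyltransferase genes, 4 were higher and 5 lower, but under each of the other scalings 0 were higher and 7 lower. For this list and the glutathione S-transferases too, all genes had more lower than higher under those scalings. The UDP-glycosyltransferase genes included Ugt49C1 (-0.43), Ugt302C1 (-0.34), Ugt37A3 (-0.32) and Ugt36A1 (0.28).

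The remaining lists had medians between -0.061 and 0.060, below the 0.12 of all genes, with few genes past an unadjusted p of 0.05. Of all genes, 15.4% were higher and 2.59% lower at that level. In carbohydrate metabolism and insulin signalling, 2 of 28 genes were higher and 3 lower. The fructose bisphosphatase gene fbp (153, 154 and 126 against 129, 124 and 92.5) and UGP (-0.48) were lower, while chico (0.22), the insulin receptor substrate, and Pepck1 (0.24) were higher. Thor, the translation repressor 4E-BP, was at 272, 323 and 326 at ZT3 and at 278, 238 and 327 at ZT15, so that only the 25°C pair differed by more than a few percent. Of 24 lipid metabolism genes 1 was lower and 0 higher. This was bgm (-0.51), a fatty acid activating enzyme, at 61.4, 60.3 and 60.5 against 61.3, 32.0 and 38.8. AcCoAS (-0.26), Hnf4 (0.18) and FASN2 (1.09, with values under 6 in every library) did not reach it.

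Among 22 neuropeptide genes, 2 were higher (Tk, tachykinin, 0.34, and sNPF, 0.27) and 1 lower (the insulin-like peptide gene Ilp5, -0.32) at an unadjusted p under 0.05, against 15.4% and 2.59% of all genes. Ilp5 was at 53.4, 60.5 and 20.6 at ZT3 and at 46.6, 53.6 and 13.4 at ZT15, and CCHa1 (0.23) was under 2.6 in every library. Of 11 chaperone genes 0 were past this level in either direction, with Hsc70-5 at 0.20, Hsp22 at -0.35, Hsp110 at 0.11 and Hsf at 0.13. Of 12 antioxidant genes 0 were past it, including Cat (0.16), Keap1 (0.17) and Prx5 (-0.085). The signs of CCHa1, Hsp110, Hsf and Keap1 turned under quantile normalization.

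Of 15 genes of antimicrobial peptides and immune recognition, 1 was higher (AttA, 0.54) and 0 lower, against 15.4% and 2.59% of all genes. Median differences were -0.14 (18°C), -0.13 (25°C) and 0.64 (29°C). The peptide gene DptB was at 5.88, 35.3 and 116 at ZT3 and at 5.25, 47.5 and 318 at ZT15, and AttC at 5.75, 18.3 and 38.9 against 5.90, 20.7 and 99.9. In both genes the levels were higher in warmer libraries, and the evening library at 29°C, which carries the body markers, was the highest. AttD, at 0.898 to 1.61 throughout, was the exception among the 4 (-0.20).

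**Figure D5:**
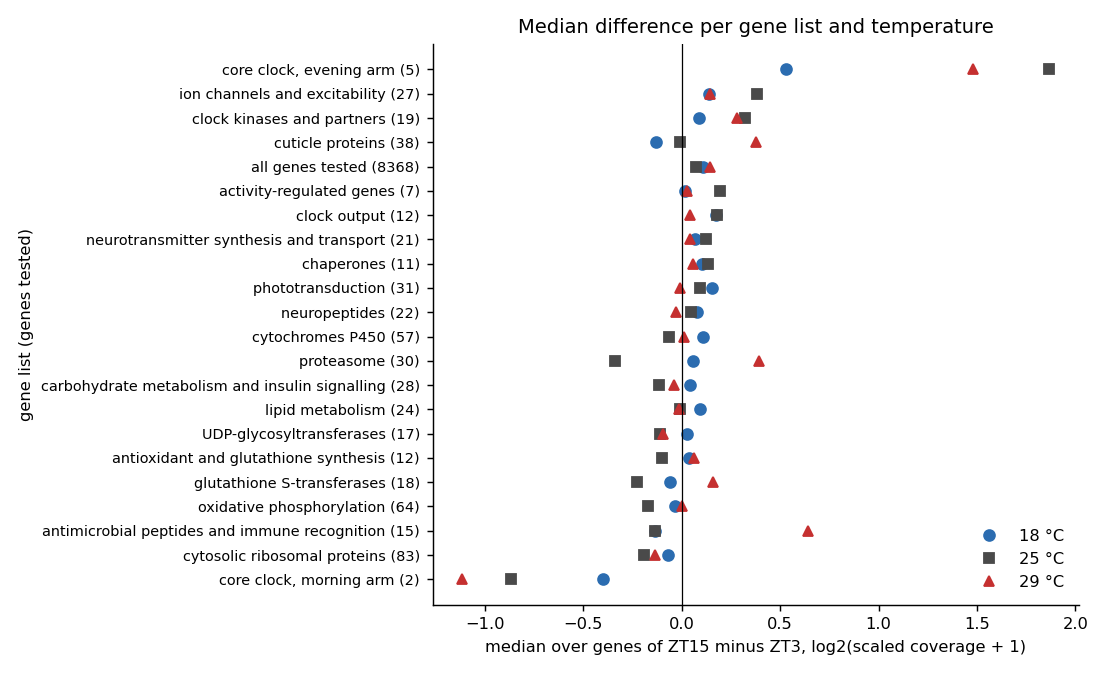
Median over genes of the difference between ZT15 and ZT3 on the scale of log2(scaled coverage + 1), for each gene list and temperature, with the number of genes tested in parentheses. The evening-phase clock genes lie to the right and the morning-phase ones to the left at all 3 temperatures, the proteasome changes side between 25°C and 29°C, and the other lists lie within 0.4 of 0 except for antimicrobial peptides at 29°C (0.64).

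Over all genes, the size of the differences varied between the pairs of libraries. At least 1.5-fold higher at ZT15 were 76 (18°C), 473 (25°C) and 627 (29°C) genes, and at least 1.5-fold lower were 117, 143 and 111. The standard deviation of the differences over genes was 0.25 (18°C), 0.31 (25°C) and 0.60 (29°C). In direction, 3539 of the 8368 genes were higher and 598 lower at all 3 temperatures. Across genes Pearson's r of the differences was 0.35 between 18°C and 25°C, 0.045 between 18°C and 29°C and 0.078 between 25°C and 29°C. These pairs of libraries share no library, and genes are not independent replicates. Each temperature is 1 pair, the evening library at 29°C carries the body markers, and the 25°C differences followed transcript length (Spearman's rho 0.51). Effects of temperature cannot be told apart from those of single libraries, and their parts were not tested.

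The use of alternative transcripts was compared as the ratio of each transcript to the mean log2 level of its gene. Among 3038 genes with at least 2 distinct transcripts, 0 had an adjusted p under 0.05 (limma, Simes p per gene), 177 had an unadjusted p under 0.05, and the lowest adjusted p was 0.079. In the 2 genes at that value the shift was small. The share of transcript CG14126-RA of CG44837 was 24.2%, 21.9% and 25.2% at ZT3 and 28.7%, 26.8% and 29.7% at ZT15, and that of CG15908-RB of CG15908 was 61.4%, 56.8% and 54.5% against 57.8%, 53.5% and 50.9%. For tim the shares of its transcripts were alike in morning and evening, for example 12.8%, 13.2% and 12.9% at ZT3 and 12.9%, 13.0% and 12.9% at ZT15 for CG3234-RA. The transcript CG3234-RC had the largest spread, from 9.23% to 11.9%, with no common direction, and tim ranked 2338 of the 3038 genes. Coverage averaged over a whole transcript includes exons shared with other transcripts, which limits what such shares can resolve.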

How the data were processed

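PolyA+ RNA from Canton-S heads was sequenced as paired ends after ligation-based library preparation, with 1 library per temperature and time point. The authors aligned reads to dm3, and the deposited table gives a signal per library, the coverage of a transcript averaged over its bases. The submitters' processing notes name Bowtie2, TopHat and Cufflinks. Their roles and any scaling are not given in the sources used here. Values summed to 92886 to 108550 per library and are not counts, so depth is unknown and no counting error is given. A further 56 unlabelled columns with values in 99 rows were not used. Of 11359 genes, 11240 were matched to RefSeq symbols.

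Libraries were scaled to a sum of 1000000, and log2(value + 1) was compared with limma 3.58.1 in R 4.3.3, with temperature as block, over transcripts with a mean of at least 1. Folds on this scale understate the differences of low genes. Adjustment was by Benjamini-Hochberg with a threshold of 0.05. The temperature of each library, from the labels, pairs them, and deviations from the group means correlated across 8368 genes at 0.73 (18°C), 0.27 (25°C) and 0.46 (29°C) within a temperature. Nothing says whether libraries are separate cultures. With temperature as block, standard errors and p-values rest on how the ZT15 minus ZT3 difference varied across the temperatures. That spread holds any effect of temperature on the difference together with variation between libraries, which may be technical.

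Members and gene lists were chosen with earlier results of these data known. Named genes are all clock and output genes, the 10 higher and 10 lower genes with the smallest p among those with a mean of at least 5 and 1 direction at all temperatures, and up to 4 genes with the smallest p from each other list. ChAT, ninaE, trpl and Thor were named for their role, and inaC, brp and the genes called without 29°C were chosen after their values were seen, as was the minimum mean of 5 where no gene passed the threshold. Alternatives were pseudocounts of 0.1 and 5, other filters, 75th percentile and quantile scaling, no block, all 8 libraries, limma's trend option, gene sums and leaving out each temperature. No genome sequence was used. Genes were looked up in BDGP6 by name, and overlaps were found from its coordinates. Of the 31 genes at least 1.5-fold apart, 17 overlap another annotated entry. These entries include tRNA genes (at gol and sr) and a transposable element (at Miox). The share of all genes with an overlap was not computed.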

Additional observations from a re-analysis of the deposited data

Results flagged for a closer look

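The proteasome list had opposite differences at 2 temperatures. All 30 of 30 genes had opposite signs at 25°C, where they were lower at ZT15, and at 29°C, where they were higher. The medians of all genes were 0.0735 at 25°C and 0.14 at 29°C, and the evening library at 29°C carries the body markers. The difference between temperatures was not tested, since each is 1 pair of libraries.

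The channel gene trpl was lower at ZT15 at 29°C, by a log2 difference of -1.19, and at least 1.5-fold higher at 18°C (0.60). This difference between temperatures was not tested either. Under scaling to the 75th percentile the 2 values were -1.27 and 0.54, and under quantile normalization -1.19 and 0.64.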

How the results depend on the processing

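Each of 111 named genes was recomputed under 12 alternatives, and 94 kept their direction in all of them. Several of the 12 could not change it. The filters, dropping the block, adding the late-night libraries and limma's trend option leave a gene's mean difference as it was. The count of 94 therefore rests on the remaining alternatives. Every reversal came from another scaling or from leaving out a temperature. Scaling to the 75th percentile reversed ChAT (-0.10), Hdc (-0.024), ninaE (-0.056), Pdfr (-0.088), Rpn10 (-0.030), Rpn6 (-0.031) and Rpt3 (-0.013). Quantile normalization reversed CCHa1 (-0.019), ChAT (-0.090), cyc (-0.0040), Hdc (-0.071), Hsf (-0.036), Hsp110 (-0.014), Keap1 (-0.036), Lnk (-0.047), Pdfr (-0.13), Rpn10 (-0.036), Rpn6 (-0.035) and Rpt3 (-0.0045). Leaving out the 18°C pair reversed ChAT, leaving out the 25°C pair reversed ninaE, Thor and to, and leaving out the 29°C pair reversed Rpn10, Rpn6, Rpt3, Rpt6R and trpl. With 1 temperature left out at a time, the values ran from -0.049 to 0.057 for ChAT, from -0.028 to 0.19 for ninaE, from -0.064 to 0.24 for Rpn10, from -0.012 to 0.24 for Rpn6, from -0.056 to 0.26 for Rpt3, from -0.028 to 0.65 for Rpt6R, from -0.22 to 0.019 for Thor, from -0.31 to 0.028 for to and from -0.80 to 0.10 for trpl. The cause was not tested.

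Adjusted calls stayed at 0 under every alternative except leaving out the 29°C pair. Leaving out 1 temperature at a time gave 0 to 2 higher and 0 to 16 lower transcripts. Without the block 0 transcripts were called in either direction, and the unadjusted calls of genes went from 1285 higher and 217 lower to 117 and 52. The block changed no adjusted call. Genes at least 1.5-fold higher at each temperature numbered 13 in the comparison as reported, 24 with a pseudocount of 0.1, 5 with a pseudocount of 5, 8 with quantile normalization, and 13 to 62 with 1 temperature left out. Genes at least 1.5-fold lower numbered 18, and 4 with a pseudocount of 5, 10 with a minimum mean of 5, 28 with quantile normalization, and 21 to 57 with 1 temperature left out. A requirement at 2 temperatures is looser than one at 3. Unadjusted calls of genes were 376 higher and 466 lower under the 75th percentile, and 186 and 574 under quantile normalization. The count test was not run, because the values are not counts, and the unknown depth limits what low genes can show.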
